A study of Mus musculus with 70 samples.

Results

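The 10 mature miRNAs described here, of the miR-143/miR-145 and miR-199/miR-214 families, were followed in small RNA libraries of microglia and of the other cells of the mouse brain. They were chosen by name, as miRNAs of contractile vessel wall cells and of fibroblasts, and are 10 of the 1882 features in the table of counts. The miR-143/miR-145 family gave 5 of them, mmu-miR-143-3p, mmu-miR-143-5p, mmu-miR-145a-5p, mmu-miR-145a-3p and mmu-miR-145b. The miR-199/miR-214 family gave the other 5, mmu-miR-199a-3p, mmu-miR-199a-5p, mmu-miR-199b-5p, mmu-miR-214-3p and mmu-miR-214-5p. All 10 members passed the filter on low counts, in which a feature needed at least 1 CPM (counts per 1000000 counts of the library) in at least 5 libraries, as did 1072 features in all. Of the members, miR-214-5p passed only through the non-microglial libraries of postnatal day 6, which held 8 of its 11 libraries with 1 CPM or more, so its tests against that group were not independent of the filter.

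Whole brains of C57Bl/6 mice were taken at postnatal day 6 (P6), at P15 and at 8 weeks, and the meninges were removed by hand. Cells carrying CD45 were caught by immunopanning, in which they stick to an antibody-coated plate. They are referred to as microglia, although other leukocytes also carry CD45. The CD45-negative cells that stayed behind are called bulk cells, and both fractions of each brain were sequenced. All mice were wild type, no treatment is named, and both sexes were used at every age. The 68 libraries compared came from 34 mice, of which 10 were at P6 (4 females and 6 males), 12 at P15 and 12 at 8 weeks.

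The primary transcript of miR-143 and miR-145 is made chiefly in smooth muscle cells and pericytes, the mural cells that wrap blood vessels, where both miRNAs support the contractile state. The miR-199 and miR-214 precursors are made chiefly in mesenchymal cells such as fibroblasts, and are known from skeletal development and fibrosis. Each precursor hairpin is cut into a 5p and a 3p strand, and usually one strand is kept while the other is degraded. Strand names and precursor families therefore order the results.

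The mature sequences of the miR-199/miR-214 members are shown because the strands of one hairpin have unrelated seeds, the part of a miRNA that pairs with its targets. Letters in capitals are the seed, bases 2 to 8 from the 5′ end. The RefSeq table used here (GRCm38.p6) gave 4 of these 5 members.
mmu-miR-199a-3p: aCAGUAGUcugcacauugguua
mmu-miR-199a-5p: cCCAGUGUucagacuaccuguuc
mmu-miR-214-3p: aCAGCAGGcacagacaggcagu
mmu-miR-214-5p: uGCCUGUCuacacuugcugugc
mmu-miR-199b-3p: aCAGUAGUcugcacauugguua
The last of these is no member, but it is identical to miR-199a-3p, so their reads cannot be told apart. Their counts differed in 9 of the libraries, by at most 9 counts. Values printed for miR-199a-3p are therefore those of both names. The 4 member sequences carry 4 different seeds. The seed of miR-214-3p is shared with mmu-miR-761, which had 0 counts in the 68 libraries.

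A pair of hairpins on chromosome 1 give most of these strands, and are printed with the 5p and then the 3p mature sequence in capitals. Mir199a-2 lies at chr1:162217814-162217923 and Mir214 at chr1:162223368-162223477 (GRCm38, plus strand), 5444 bases apart. Both lie in exons of Dnm3os, a noncoding transcript of the same strand, and within an intron of Dnm3, which runs on the opposite strand.
Mir199a-2: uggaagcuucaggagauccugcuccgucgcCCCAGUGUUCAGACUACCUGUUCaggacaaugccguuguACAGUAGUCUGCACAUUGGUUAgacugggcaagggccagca
Mir214: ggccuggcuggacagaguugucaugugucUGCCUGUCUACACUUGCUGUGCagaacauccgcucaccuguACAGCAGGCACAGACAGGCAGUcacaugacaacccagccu
A second copy, Mir199a-1 at chr9:21496495-21496564 (minus strand), gives the same mature miR-199a strands from an intron of Dnm2, again on the opposite strand. Mir199b lies at chr2:32318460-32318569 (plus strand), opposite an intron of Dnm1. The 3 miR-199 hairpins thus each lie opposite a dynamin gene.

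Library totals ran from 1678034 counts to 8747394, and the deepest microglial library at P6, with 4066435, was shallower than the shallowest bulk library of that age, with 5979569. At these totals a floor of 3 counts stood for 0.343 to 1.79 CPM, which covers counting error only. The fractions matched their labels. All 3 miRNAs of a myeloid list (miR-142a-3p, miR-142a-5p and miR-223-3p) were higher in microglia, with log2 fold changes of 6.23 to 7.52. All 5 of a neuronal list (miR-124-3p, miR-128-3p, miR-129-5p, miR-137-3p and miR-138-5p) were lower, by -1.76 to -2.41. Microglial libraries still held neuronal miRNAs, as miR-124-3p averaged 19596 CPM ± 8799 (SD, n = 12) there at 8 weeks against 120148 CPM ± 19309 (SD, n = 12) in bulk cells. In such bulk preparations, fewer cells of a type and less RNA per cell cannot be told apart.

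Among the miR-143/miR-145 strands, miR-143-3p was the most abundant in every group. In bulk cells it had a lowest, median and highest value of 3802, 6851 and 9294 CPM at P6, of 7292, 9568 and 13142 CPM at P15 and of 5779, 10098 and 11895 CPM at 8 weeks. In microglia these values were 1989, 8604 and 11475 CPM at P6, 1643, 6783 and 11435 CPM at P15 and 2937, 8272 and 15730 CPM at 8 weeks. The 6 groups overlapped, and no neighbours in the order of their means stood further apart than 1 SD on each side. It ranked between 17 and 32 among the 1882 features by mean CPM in these groups. The other strand of its hairpin, miR-143-5p, averaged between 0.434 and 0.950 CPM, with at most 3 counts in 17 of 34 bulk and 28 of 34 microglial libraries, and was at 0 in 4 of 10, 5 of 12 and 5 of 12 microglial libraries at P6, P15 and 8 weeks.

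The genes of this family lie on chromosome 18 (GRCm38, minus strand), and no sequence of them is printed. Mir145a spans 61647825 to 61647894 and Mir143 spans 61649196 to 61649258, 1301 bases away, and neither lies within another annotated gene. Mir145b lies apart, from 69022199 to 69022273.

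The guide strand miR-145a-5p was the next most abundant of the family. Its bulk values were 286, 604 and 764 CPM (lowest, median, highest) at P6, 672, 982 and 1228 CPM at P15 and 1186, 1704 and 2278 CPM at 8 weeks. All bulk libraries at 8 weeks thus lay above all those at P6, and overlapped with those at P15. In microglia the values were 217, 987 and 1589 CPM at P6, 157, 792 and 1495 CPM at P15 and 483, 1522 and 2352 CPM at 8 weeks, with overlap between all ages. The passenger strand miR-145a-3p averaged 30.5 CPM ± 10.1 (SD, n = 10), 40.7 CPM ± 6.86 (SD, n = 12) and 53.0 CPM ± 11 (SD, n = 12) in bulk cells of the 3 ages, and 44.3 CPM ± 17.3 (SD, n = 10), 29.6 CPM ± 18.5 (SD, n = 12) and 41.9 CPM ± 20.0 (SD, n = 12) in microglia. The related miR-145b was close to the floor at both early ages, with at most 2.25 CPM in any library. At 8 weeks it reached 7.22, 9.40 and 16.3 CPM in bulk cells and 2.01, 11.6 and 14.7 CPM in microglia, and in each fraction no library at 8 weeks overlapped with an earlier age.

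**Figure D1:**
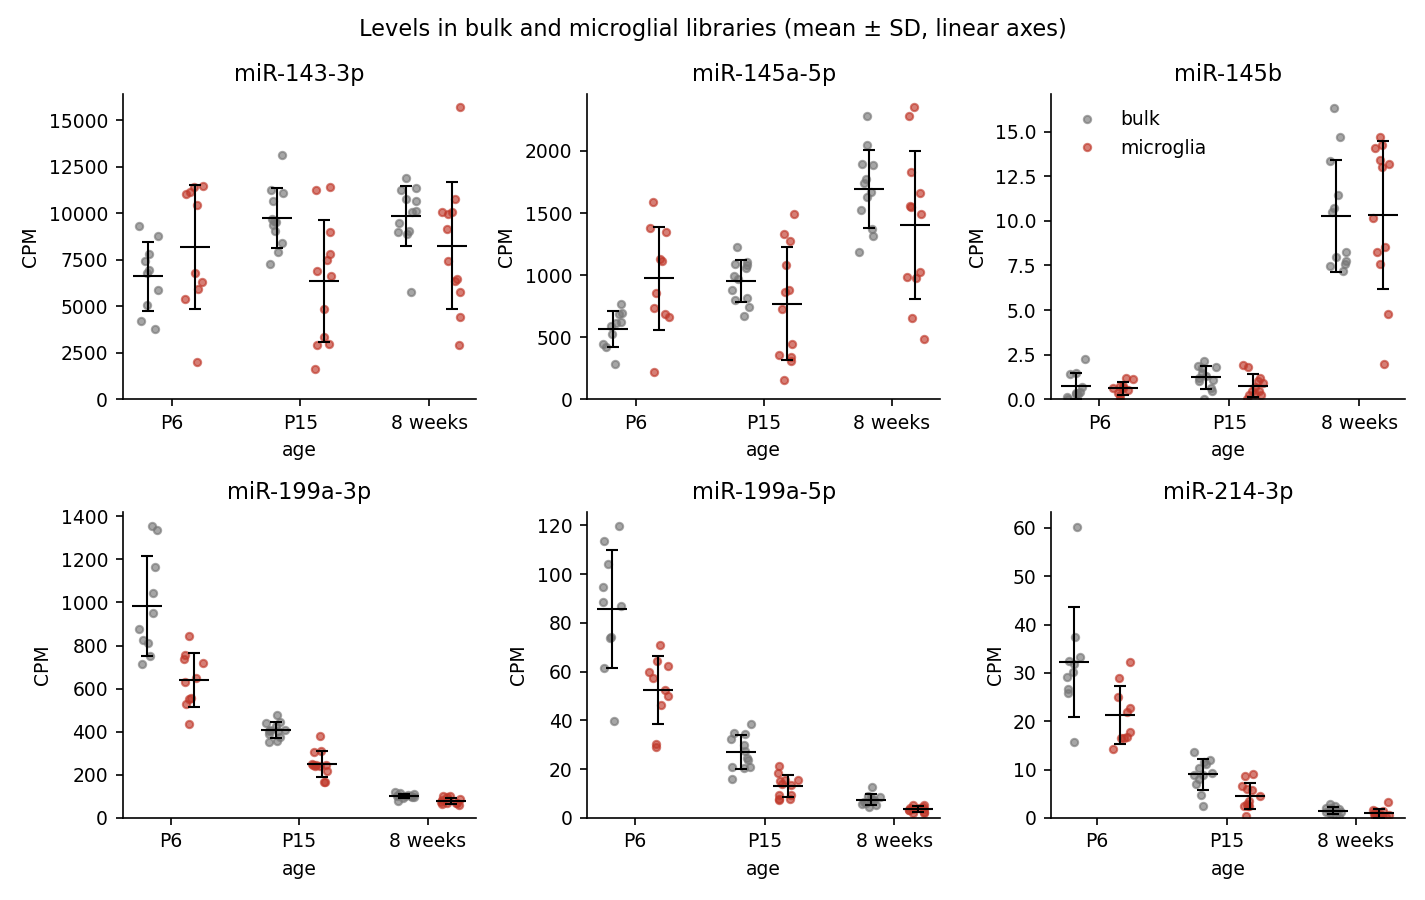
CPM (linear axes) of 6 miRNAs by age, with 1 point per library, bulk cells in grey and microglia in red, and black marks for the mean ± SD (in each fraction n = 10 at P6 and 12 at each later age). The upper row holds miR-143-3p, miR-145a-5p and miR-145b, the lower row miR-199a-3p, miR-199a-5p and miR-214-3p, which step down with age in both fractions.

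Of the miR-199/miR-214 strands, miR-199a-3p was the most abundant. Its bulk values were 713, 915 and 1355 CPM (lowest, median, highest) at P6, 350, 406 and 476 CPM at P15 and 79.4, 103 and 119 CPM at 8 weeks. In microglia they were 434, 639 and 843 CPM, then 165, 244 and 378 CPM, and then 59.1, 77.2 and 102 CPM. No library of one age overlapped with another age within a fraction. The order of the means ran from P6 to 8 weeks with bulk cells above microglia at each age. The bulk and microglial means of one age stood apart by more than 1 SD on each side at P15 only.

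The opposite strand miR-199a-5p followed the same steps at a lower level. In bulk cells it averaged 85.7 CPM ± 24.3 (SD, n = 10) at P6, 27.0 CPM ± 6.99 (SD, n = 12) at P15 and 7.48 CPM ± 2.19 (SD, n = 12) at 8 weeks, and in microglia 52.3 CPM ± 13.9 (SD, n = 10), 12.9 CPM ± 4.56 (SD, n = 12) and 3.65 CPM ± 1.12 (SD, n = 12). No ages overlapped in either fraction. The strand miR-199b-5p, from the hairpin on chromosome 2, averaged 16.9 CPM ± 5.70 (SD, n = 10), 8.95 CPM ± 2.33 (SD, n = 12) and 1.77 CPM ± 0.916 (SD, n = 12) in bulk cells and 12.1 CPM ± 2.72 (SD, n = 10), 6.67 CPM ± 3.47 (SD, n = 12) and 0.919 CPM ± 0.374 (SD, n = 12) in microglia.

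Strands of Mir214, the neighbour of Mir199a-2, had far fewer reads than miR-199a-3p. As that strand comes from every miR-199 hairpin, the output of the neighbours themselves cannot be compared. In bulk cells miR-214-3p had 15.7, 31.1 and 60.3 CPM (lowest, median, highest) at P6, 2.51, 9.10 and 13.6 CPM at P15 and 0.208, 1.31 and 2.87 CPM at 8 weeks. In microglia it had 14.3, 19.8 and 32.3 CPM, then 0.310, 4.04 and 9.15 CPM, and then 0, 0.681 and 3.30 CPM. P6 stood clear of the later ages in both fractions, whereas P15 and 8 weeks overlapped. Its other strand, miR-214-5p, averaged 1.87 CPM ± 1.22 (SD, n = 10) in bulk cells at P6 and at most 0.425 CPM in the other groups, and at 8 weeks all 12 libraries of each fraction held at most 3 counts of it.

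The first comparison asked whether these miRNAs differ between microglia and bulk cells. No member was called higher or lower with the ages pooled, at P15 or at 8 weeks, when tested with TREAT in limma against a log2 fold change of 1, while a large share of all features was. With the ages pooled, 23.3% of the 1072 features were higher and 21.8% lower in microglia. The shares were 21.3% and 18.7% at P15, and 21.2% and 23.7% at 8 weeks. No member had an unadjusted TREAT p under 0.05 in these 3 comparisons, and edgeR and DESeq2 also called 0 members in each. At P6, where 17.4% of features were higher and 10.6% lower, 1 member was called, miR-214-5p.

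With the ages pooled the log2 fold changes of the 10 members lay between -0.91 and -0.03, with a median of -0.55 against 0.29 over all features tested. For miR-143-3p the difference was -0.25 ± 0.13 (SE, 95% interval -0.52 to 0.02), and it was lower in microglia in 17 of 34 mice by CPM. For miR-145a-5p it was -0.03 ± 0.15 (SE, 95% interval -0.32 to 0.26), with 15 of 34 mice lower, and its sign turned with the test and the block. These intervals lie inside a log2 fold change of 1 in either direction. For miR-145a-3p the difference was -0.20 ± 0.15 and for miR-145b -0.13 ± 0.25 (SE), and for miR-143-5p, with few counts, -0.78 ± 0.31 (SE).

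The miR-199/miR-214 strands were lower in microglia by less than the threshold. The difference of miR-199a-3p was -0.51 ± 0.06 (SE, 95% interval -0.64 to -0.39), and it was lower in microglia in 34 of 34 mice. That of miR-199a-5p was -0.86 ± 0.11 (SE), with 33 of 34 mice lower. Values for miR-199b-5p, miR-214-3p and miR-214-5p were -0.59 ± 0.15, -0.81 ± 0.21 and -0.91 ± 0.27 (SE), with 28, 26 and 17 of 34 mice lower. For miR-214-5p 13 of the other mice were tied and 4 were higher. The adjusted p of TREAT was 1 for each of these. A moderated limma test without the threshold called 6 of the 10 members lower with the ages pooled, all 5 strands of miR-199/miR-214 and miR-143-5p, but it also called 37.8% of all features lower. At P6, P15 and 8 weeks this test called 5, 6 and 3 members lower, beside 28.4%, 33.3% and 38.2% of all features.

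By age, miR-143-3p differed by 0.16 ± 0.25 at P6, by -0.61 ± 0.22 at P15 and by -0.29 ± 0.22 at 8 weeks (SE). It was higher in microglia in 9 of 10 mice at P6 and lower in 9 of 12 at P15. Leaving out single mice moved these values over 0.07 to 0.38 at P6, -0.81 to -0.52 at P15 and -0.37 to -0.12 at 8 weeks. For miR-145a-5p the differences were 0.60 ± 0.27, -0.37 ± 0.25 and -0.32 ± 0.23 (SE), with 9 of 10 mice higher at P6. On leaving out single mice they ran over 0.51 to 0.83, -0.58 to -0.23 and -0.42 to -0.15. Without the threshold the P6 value of miR-145a-5p had an adjusted p of 0.0449 in limma, where 41.5% of all features were called higher. The strand miR-199a-3p differed by -0.70 ± 0.11, -0.52 ± 0.11 and -0.32 ± 0.12 (SE) at the 3 ages, and was lower in microglia in all mice of each age.

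The 1 call, miR-214-5p at P6, rests on few reads and on a strand that passed the filter only through the P6 bulk libraries, its high group here. Its bulk libraries held between 0.139 and 4.26 CPM with a median of 1.86 CPM, and its microglial libraries between 0 and 0.984 CPM with a median of 0.136 CPM, so the groups overlapped. It was at 0 in 5 of 10 microglial libraries and at most 3 counts in 9. Its fitted value was -2.26 ± 0.45 on the log2 scale (SE, adjusted p = 0.0145, lower in 9 of 10 mice). DESeq2 gave an adjusted p of 0.206, the range over the settings was 0.0124 to 0.206, and without P6 male mouse 5 it was 0.0515. The microglial libraries were the shallower ones at P6, and the part of depth in this result was not tested.

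**Figure D2:**
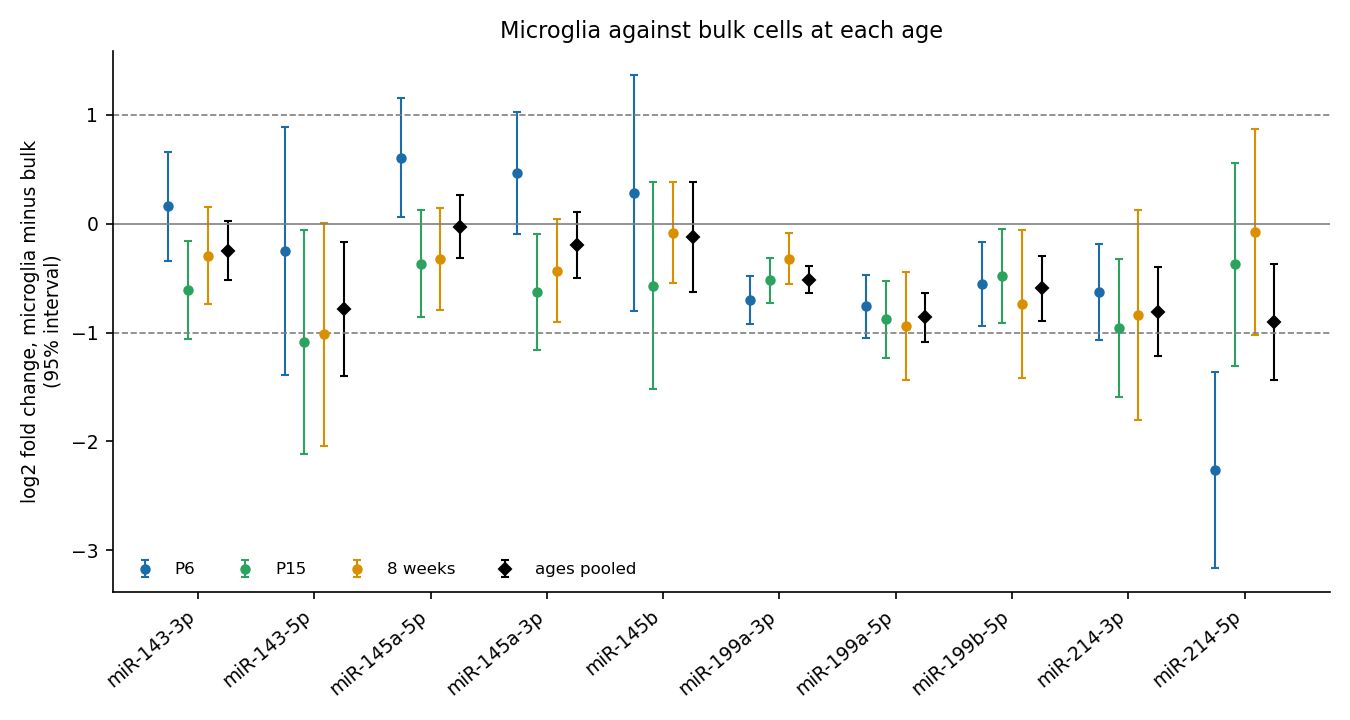
Log2 fold change of each of the 10 members between microglia and bulk cells (y axis, limma, 95% interval) at each age and with the ages pooled (n = 10, 12, 12 and 34 mice), with dashed lines at the TREAT threshold of 1 in either direction. All pooled estimates lie between -0.91 and -0.03, and only miR-214-5p at P6, at -2.26, has an interval wholly past a dashed line.

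Lists of miRNAs typical of other cells were set beside these values, each with all of its listed members unless stated. Both strands of miR-126a, the endothelial list, were lower in microglia, with log2 fold changes of -3.02 ± 0.12 for miR-126a-3p (SE, adjusted p = 3.22e-25) and -2.68 ± 0.11 for miR-126a-5p (SE, adjusted p = 2.60e-22). Their summed level ranged from 10435 to 42412 CPM over bulk libraries and from 1201 to 6589 CPM over microglial libraries. All 3 miRNAs of an oligodendrocyte list were lower, by -2.46 to -3.60, and all 4 of a striated muscle list, by -1.52 to -2.32. Of 5 choroid plexus or multiciliated miRNAs 4 were lower, and the list spanned -0.94 to -2.98. The 1 lymphoid miRNA, miR-150-5p, was lower by -1.76. The 4 erythroid miRNAs were higher in microglia, by 2.28 to 3.01. None of these markers was at 0 in all libraries of any group. The endothelial, neuronal, oligodendrocyte and striated muscle lists were thus lower in microglia in all their members, whereas miR-143-3p, both miR-145a strands and miR-145b stayed between -0.25 and -0.03 with the ages pooled. At single ages these 4 strands ran from -0.62 (miR-145a-3p at P15) to 0.60 (miR-145a-5p at P6). The remaining strand of the family, miR-143-5p, with few counts, lay lower with the ages pooled. It ran from -0.90 to -0.69 on leaving out single mice, and was lower in 24 of 34 mice. Whether mural cells, or any other source, contributed these reads to the microglial libraries was not tested.

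A further list of miRNAs often found in mesenchymal and vessel cells had 6 of its 8 names in the table, of which miR-199b-3p is the twin of the member miR-199a-3p, and did not move as one. With the ages pooled miR-10a-5p and miR-152-3p were higher in microglia, by 2.43 ± 0.18 and 1.23 ± 0.05 (SE, adjusted p = 2.47e-10 and 2.52e-05), and miR-10b-5p was lower, by -1.58 ± 0.26 (SE, adjusted p = 0.0323). The clustered pair miR-195a-5p and miR-497a-5p differed by -0.77 ± 0.09 and -0.89 ± 0.10 (SE, adjusted p = 1 for both), which is in the range of the miR-199/miR-214 strands. In an epithelial list, 2 of 5 miRNAs were higher in microglia, and the list spanned -0.83 to 2.83.

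**Figure D3:**
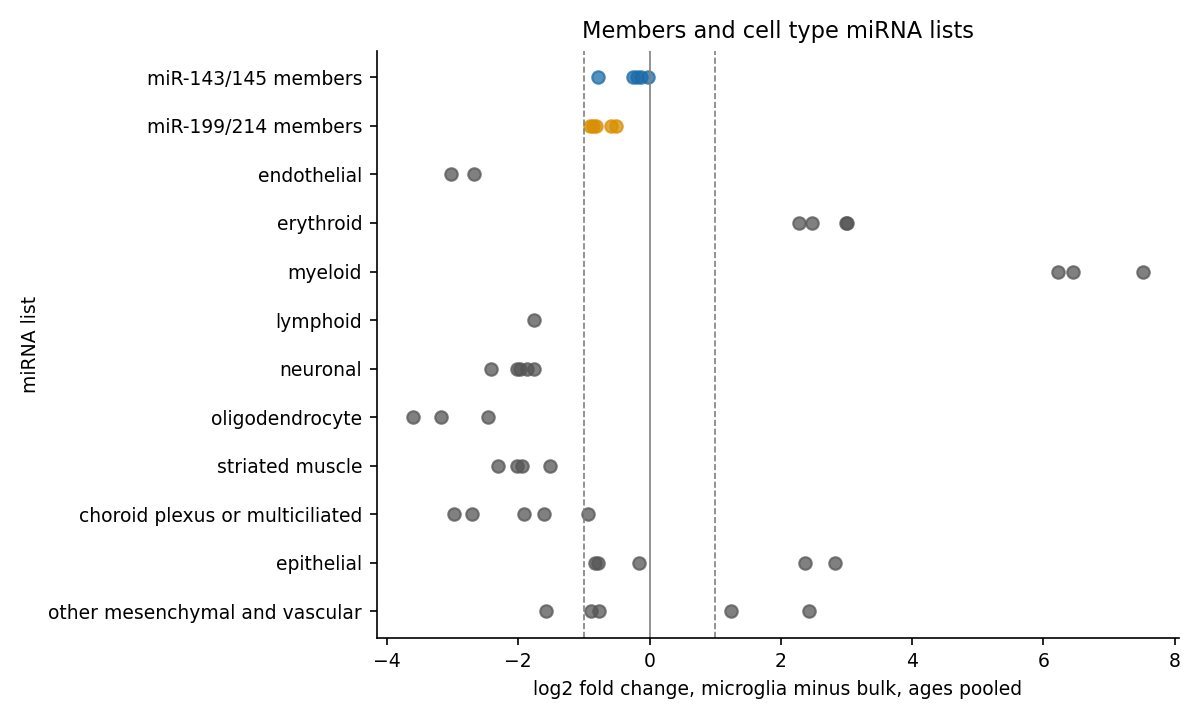
Log2 fold change between microglia and bulk cells with the ages pooled (x axis) for each miRNA of the 2 member families (coloured) and of the cell type lists (grey, miR-199b-3p left out), 1 row per list and 1 point per miRNA, with dashed lines at the threshold of 1. The members lie between -0.91 and -0.03, to the right of the endothelial (-3.02 to -2.68) and oligodendrocyte (-3.60 to -2.46) lists.

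The second comparison asked how the members changed with age in each fraction. The 2 families differed in direction. From P6 to 8 weeks in bulk cells, all 5 miR-199/miR-214 strands fell and 2 of 5 miR-143/miR-145 strands rose, beside 12.4% of all features lower and 13.2% higher. In microglia, 4 of 5 miR-199/miR-214 strands fell and 1 of 5 miR-143/miR-145 strands rose, beside 9.42% lower and 7.18% higher. The median log2 fold change of the miR-199/miR-214 strands was -3.16 in bulk cells and -3.13 in microglia, against 0.32 and -0.17 over all features. The fall of miR-214-5p in bulk cells is from the group through which it passed the filter. Without it 4 of 4 strands fell in each fraction, with medians of -3.08 in bulk cells and -3.26 in microglia.

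In bulk cells from P6 to 8 weeks, miR-199a-3p fell by 2.93 ± 0.12 on the log2 scale (SE, adjusted p = 3.09e-23), which is 7.61-fold. Its opposite strand miR-199a-5p fell by 3.22 ± 0.19 (SE, adjusted p = 2.68e-16), and miR-199b-5p fell by 2.95 ± 0.27 (SE, adjusted p = 3.29e-09). The largest fall of the 10 members was that of miR-214-3p, by 4.24 ± 0.37 (SE, adjusted p = 1.18e-11), and miR-214-5p fell by 3.16 ± 0.45 (SE, adjusted p = 3.29e-05), a size that is imprecise because all its 8-week libraries were at the floor. In microglia miR-199a-3p fell by 2.55 ± 0.12 (SE, adjusted p = 2.28e-17), miR-199a-5p fell by 3.40 ± 0.24 (SE, adjusted p = 2.24e-13), miR-199b-5p fell by 3.13 ± 0.32 (SE, adjusted p = 6.87e-08) and miR-214-3p fell by 4.45 ± 0.43 (SE, adjusted p = 3.88e-10), the last with at most 3 counts in 7 of 12 libraries at 8 weeks, so that its size is imprecise. These 9 calls held under every other test, scaling, filter and left-out mouse that was tried and that kept the strand in the test. For miR-214-5p in microglia, with at most 5 counts in any library, the value was -0.98 ± 0.53 (SE, adjusted p = 1).

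The intervals before and after P15 share libraries, so their values are given side by side, and whether they differ was not tested. From P6 to P15 in bulk cells 4 members were lower and 0 higher, beside 1.68% of features lower and 1.87% higher. They were miR-199a-5p (-1.83 ± 0.15), miR-199a-3p (-1.41 ± 0.11), miR-214-3p (-2.04 ± 0.25) and miR-214-5p (-2.61 ± 0.44, SE, adjusted p = 2.41e-05, 0.00775, 0.00157 and 0.00775). The call of miR-199a-3p was lost in 4 of 10 other settings and on leaving out 1 of 8 mice (P15 female 6, P15 males 3, 5 and 6, P6 females 1 and 2, or P6 males 1 and 4), with an adjusted p of up to 0.195. That of miR-214-5p, near the floor and from the group through which it passed the filter, was lost in 3 of 9 other settings and without P15 male mouse 3 or P6 female mouse 1 (adjusted p of up to 1 and 0.0524). From P6 to P15 in microglia 2 were lower and 0 higher, miR-199a-5p (-1.95 ± 0.19, adjusted p = 0.000152) and miR-214-3p (-2.37 ± 0.33, adjusted p = 0.00209), beside 2.15% lower and 0.746% higher. There miR-199a-3p changed by -1.23 ± 0.12 (SE, adjusted p = 0.473), although its libraries at P6 and P15 did not overlap by CPM. The changes of miR-199b-5p were -1.02 ± 0.19 in bulk cells and -0.95 ± 0.24 in microglia (SE, adjusted p = 1 for both).

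From P15 to 8 weeks in bulk cells 3 members were lower and 1 higher, beside 4.94% and 6.06% of features. The 3 were miR-199a-3p (-1.52 ± 0.12), miR-199b-5p (-1.92 ± 0.28) and miR-214-3p (-2.20 ± 0.40, SE, adjusted p = 0.000262, 0.00990 and 0.0201). The call of miR-214-3p was lost without 8-week female mouse 1 or 4, with an adjusted p of up to 0.0675 on leaving out a mouse. For miR-199a-5p the change was -1.39 ± 0.20 (SE, adjusted p = 0.216), which passed in 6 of 10 other settings, and for miR-214-5p it was -0.55 ± 0.50 (SE, adjusted p = 1). In microglia 1 was lower and 1 higher, beside 2.8% and 1.77%. The lower one was miR-199b-5p (-2.18 ± 0.32, SE, adjusted p = 0.00893), while miR-199a-3p changed by -1.32 ± 0.12 (SE, adjusted p = 0.0915), miR-199a-5p by -1.45 ± 0.25 (adjusted p = 0.514) and miR-214-3p by -2.08 ± 0.47 (adjusted p = 0.182). In 6 of 10 other settings, and without 8-week female mouse 1, miR-199a-3p was called here as well, and miR-214-3p in 4 of 10 and without P15 male mouse 6.

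The miR-143/miR-145 strands differed in their change with age. From P6 to 8 weeks in bulk cells miR-145a-5p rose by 1.91 ± 0.27 (SE, adjusted p = 0.00304) and miR-145b rose by 4.49 ± 0.43 (SE, adjusted p = 1.63e-10). The other strands changed by 0.93 ± 0.25 for miR-143-3p, 1.15 ± 0.26 for miR-145a-3p and 0.79 ± 0.55 for miR-143-5p (SE, adjusted p = 1, 0.652 and 1). In microglia miR-145b rose by 4.13 ± 0.46 (SE, adjusted p = 3.89e-08), and the other values were 0.99 ± 0.27 for miR-145a-5p, 0.48 ± 0.26 for miR-143-3p and 0.26 ± 0.29 for miR-145a-3p (SE, adjusted p = 1 for each). The 1 member that rose from P15 to 8 weeks was miR-145b in each fraction, by 3.59 ± 0.39 in bulk cells (SE, adjusted p = 1.36e-07) and by 4.08 ± 0.41 in microglia (SE, adjusted p = 1.61e-08). Its fold rests on few counts at P6 and P15, with medians of 2 to 6 counts per library, and by mean CPM it was 8.36-fold in bulk cells and 13.4-fold in microglia from P15. Without the threshold, miR-143-3p (adjusted p = 0.000871) and miR-145a-3p (adjusted p = 0.000106) were also higher at 8 weeks than at P6 in bulk cells, as were 38.8% of all features. This test called 5 members lower there, beside 27.4% of features. In the other bulk comparisons it called 5 lower from P6 to P15 (21% of features), and 3 higher (31.6%) and 4 lower (19%) from P15 to 8 weeks. In microglia it called 5 lower from P6 to P15 (18.3%), 4 higher (17.7%) and 4 lower (19.5%) from P15 to 8 weeks, and 2 higher (23.6%) and 4 lower (30.3%) from P6 to 8 weeks.

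These fold changes are scaled with TMM, whereas the CPM values are scaled with library totals, and this matters for the small changes. Between P15 and 8 weeks in bulk cells, miR-143-3p was at 9752 CPM ± 1606 and 9850 CPM ± 1624 (SD, n = 12 each), 1.01-fold, yet its fitted log2 fold change was 0.48 ± 0.24 (SE). The median of all features in this comparison was 0.24 with TMM and -0.23 with library totals alone. For 8 weeks against P6 it was 0.32 and 0.01 in bulk cells, and -0.17 and -0.64 in microglia. With library totals alone the adjusted p of miR-145a-5p in bulk cells rose to 0.0552, and the microglial value of miR-145a-3p turned to -0.21.

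**Figure D4:**
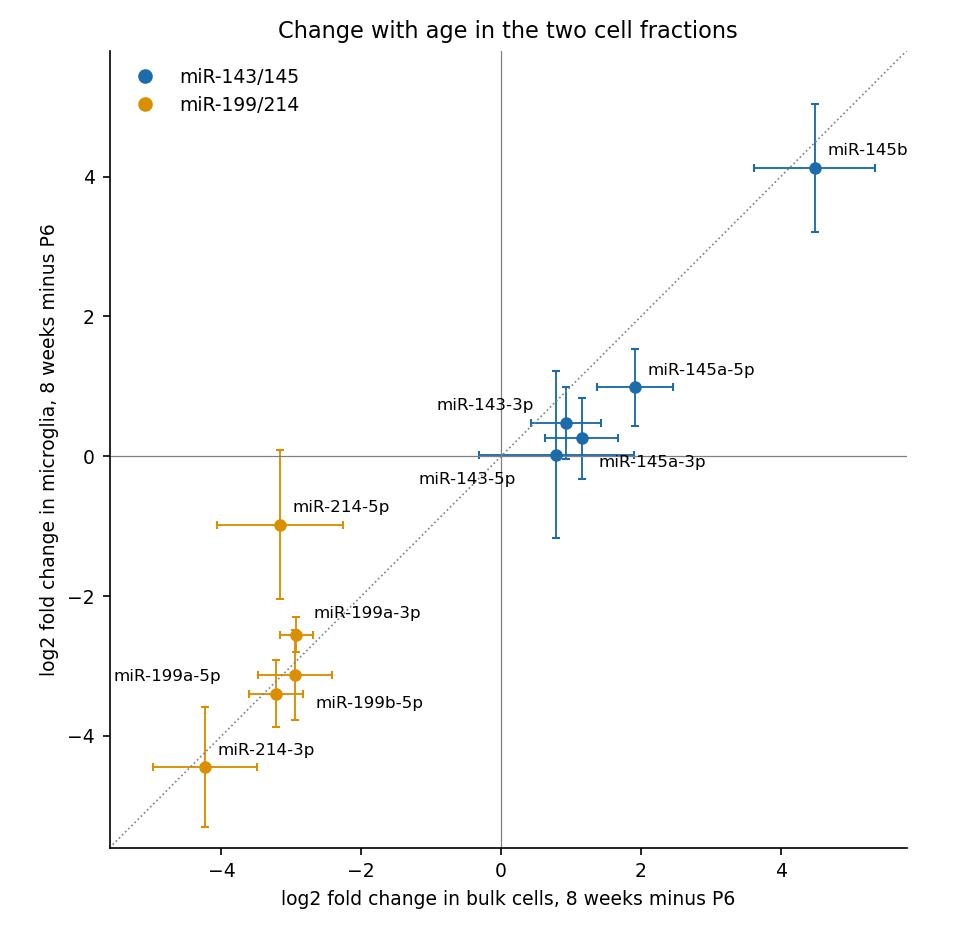
Log2 fold change from P6 to 8 weeks in bulk cells (x axis) and in microglia (y axis) for the 10 members, with 95% intervals from limma and a dotted line of equal change (n = 10 mice at P6 and 12 at 8 weeks). Strands of miR-199/miR-214 (orange) lie at -2.93 to -4.24 in bulk cells, and of miR-143/miR-145 (blue) at 0.79 to 4.49.

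Whether the change with age differed between the fractions was tested with interaction terms. No member was called in any of the 3, beside 1.59% of features for P15 against P6, 3.36% for 8 weeks against P15 and 14.6% for 8 weeks against P6. Unadjusted TREAT p-values under 0.05 numbered 0, 0 and 1 of 10 in these, and edgeR and DESeq2 called 0 members in each. For 8 weeks against P6 the differences in change (microglia minus bulk) were 0.38 ± 0.16 for miR-199a-3p, -0.45 ± 0.33 for miR-143-3p, -0.93 ± 0.36 for miR-145a-5p, -0.89 ± 0.37 for miR-145a-3p and 2.19 ± 0.65 for miR-214-5p (SE). Without the threshold 4 of the 10 members had an adjusted p under 0.05 in limma, as had 53.6% of all features. They were the strands just named, all but miR-143-3p. For P15 against P6 that test called 3 members, miR-145a-5p (-0.97 ± 0.37), miR-145a-3p (-1.09 ± 0.39) and miR-214-5p (1.89 ± 0.65, SE), beside 25.1% of features.

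The sexes were compared within each age and fraction. None of the 10 members was called in any of the 6 contrasts with limma, and 0% of all features were. Of the 60 member values, 6 had an unadjusted p under 0.05 without the threshold, against 7.38% of all feature values, and edgeR and DESeq2 called 0. The log2 fold changes of males against females ran from -1.53 to 2.03.

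Ratios between strands were then taken within each library. For every 100 counts of miR-143-3p, whose hairpin is a separate one, bulk libraries held 7.53 to 10.02 counts of miR-145a-5p at P6, 7.002 to 13.1 at P15 and 14.6 to 20.5 at 8 weeks. The 8-week libraries lay above all earlier ones. In microglia the ratio was 9.70 to 14.4, 9.12 to 16.99 and 14.4 to 22.7, so 8 weeks lay above P6 and overlapped with P15. Within the Mir145a hairpin, counts of miR-145a-3p per 100 of miR-145a-5p went the other way, with a mean in bulk cells of 5.37 ± 0.80 (SD, n = 10) when taken at P6 and of 3.14 ± 0.35 (SD, n = 12) when taken at 8 weeks, and in microglia of 4.78 ± 0.97 and 2.93 ± 0.38 (SD, same n), without overlap in either. For miR-145b the mean per 100 counts of miR-145a-5p was 0.127 ± 0.060 at P15 and 0.602 ± 0.101 at 8 weeks in bulk cells, and 0.104 ± 0.062 and 0.743 ± 0.186 in microglia (SD, n = 12 each). At P6 it was 0.143 ± 0.159 and 0.112 ± 0.157 (SD, n = 10 each), with single libraries at up to 0.487 and 0.537, so 8 weeks lay above all P15 libraries and overlapped with P6 in both fractions. Whether reads were shared between miR-145a and miR-145b in counting was not tested. Ratios within a library do not depend on its scaling.

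In the other family, the ratio within the miR-199a hairpins overlapped between ages. The 5p strand stood at 8.68 ± 1.49 per 100 counts of the 3p strand (SD, n = 10) in bulk cells at P6 and at 7.33 ± 2.16 (SD, n = 12) at 8 weeks, and at 8.29 ± 2.08 (SD, n = 10) and 4.87 ± 2.002 (SD, n = 12) in microglia. The 3p strand here also counts reads of miR-199b. For miR-214-3p the mean per 100 counts of miR-199a-3p was 3.26 ± 0.66, 2.23 ± 0.86 and 1.45 ± 0.76 in bulk cells at the 3 ages, and 3.42 ± 1.13, 1.76 ± 0.80 and 1.23 ± 1.31 in microglia (SD), with overlap between all ages. Set against each other, miR-143-3p had a median of 6.80 times the counts of miR-199a-3p in bulk cells at P6, 24.0 times at P15 and 97.8 times at 8 weeks. In microglia these medians were 13.3, 28.7 and 98.1. In bulk cells no age overlapped with another in this ratio.

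The spread between mice was wider in microglia than in bulk cells for miR-143-3p and both miR-145a strands. The coefficient of variation of miR-143-3p was 40.7%, 51.2% and 41.5% in microglia at the 3 ages, and 27.9%, 16.5% and 16.5% in bulk cells. That of miR-199a-3p was 19.5%, 23.8% and 18.2% in microglia and 23.8%, 9.02% and 9.84% in bulk cells. As deviations from the group mean on the log2 scale, miR-143-3p had an SD of 0.76 in microglia and 0.29 in bulk cells, and miR-145a-5p 0.83 and 0.28. These SDs were closer for the strands with few counts, at 0.66 and 0.60 for miR-145b and 0.81 and 0.69 for miR-143-5p. In the other family, miR-214-3p had 0.82 and 0.58. No test was run on these spreads.

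Within the microglial libraries miR-143-3p and both miR-145a strands varied together. Across the 34 libraries, as deviations from the 12 group means, Pearson's r with miR-143-3p was 0.98 for miR-145a-5p and 0.94 for miR-145a-3p, which were the first and second of all features. The strands with few counts followed less closely, at 0.49 for miR-143-5p and 0.43 for miR-145b. For the miR-145a strands in bulk cells these values were 0.90 and 0.85. Scaled with library totals alone they were 0.98 and 0.94 in microglia and 0.91 and 0.87 in bulk cells. Outside the family, the microglial r was highest with miR-92b-3p (0.78), miR-365-3p (0.77), miR-100-3p (0.73) and miR-100-5p (0.72), which were singled out after their values were seen, and it was 0.70 with miR-199a-3p. With endothelial miR-126a-3p it was 0.55, with neuronal miR-124-3p 0.14, with erythroid miR-451a -0.05 and with myeloid miR-142a-3p -0.46. The deviation of miR-143-3p in the microglial library of a mouse and in the bulk library of the same mouse correlated by r of 0.07 over 34 mice, against a median of 0.12 over all features. These correlations are descriptions over libraries that share depth and scaling, with no test.

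**Figure D5:**
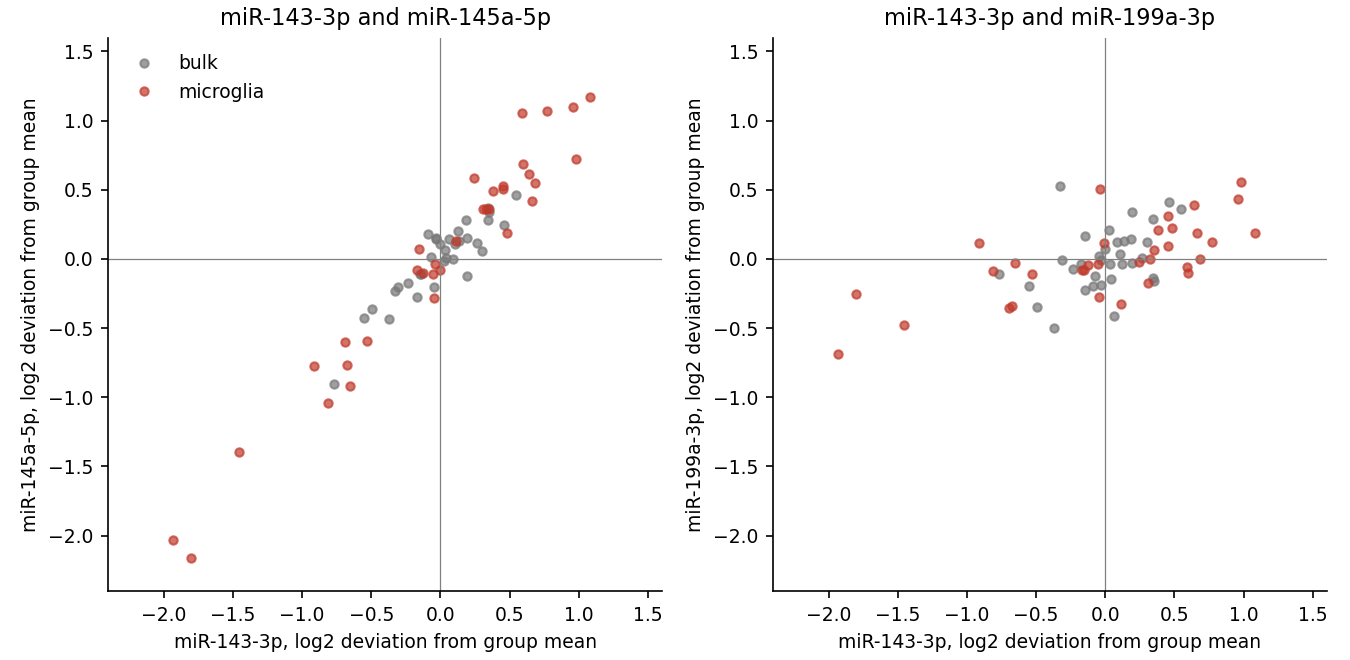
Deviation from the mean of the age, sex and fraction group (log2 CPM, TMM scaled) of miR-143-3p (x axis) against miR-145a-5p (left, y axis) and miR-199a-3p (right, y axis), with 1 point per library, 34 of bulk cells in grey and 34 of microglia in red. Points of miR-145a-5p lie along a line (r of 0.98 in microglia and 0.90 in bulk cells), and those of miR-199a-3p scatter more (0.70 and 0.43).

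The features most like each lead miRNA were then taken by rule, as the 5 outside the families with the highest r. Over the 68 libraries those of miR-143-3p were miR-23b-3p, miR-195a-5p, miR-193a-5p, miR-1a-3p and miR-139-5p, with r of only 0.55 to 0.57, below miR-145a-3p (0.93) and miR-145a-5p (0.91). Of the family, miR-145b (0.56) lay among these features and miR-143-5p (0.47) below them. Over the bulk deviations they were miR-193a-3p (0.86), miR-23a-3p (0.80), endothelial miR-126a-5p (0.78), miR-27a-3p (0.76) and miR-27b-3p (0.73). With library totals alone these bulk values were 0.86, 0.83, 0.85, 0.79 and 0.75.

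For miR-199a-3p over the 68 libraries, after its twin miR-199b-3p, the features were miR-449a-5p (0.95), miR-296-3p (0.94), miR-130a-3p (0.93), miR-130a-5p (0.92) and miR-449c-5p (0.90), beside 0.94 for miR-199a-5p, 0.91 for miR-214-3p, 0.90 for miR-199b-5p and 0.60 for miR-214-5p of its own family. From P6 to 8 weeks all 5 fell in both fractions, by log2 fold changes of -2.76 to -6.20 in bulk cells and of -2.46 to -5.83 in microglia (each past the TREAT threshold in limma). These falls follow from the choice and are no separate result, since r was taken over all ages and miR-199a-3p itself fell. The first of the 5, miR-449a-5p, a miRNA of multiciliated cells, averaged 2875 CPM ± 1131 (SD, n = 10) in P6 bulk cells and 30.3 CPM ± 4.53 (SD, n = 12) in those of 8 weeks. Over the bulk deviations, in which age is removed, they were miR-140-5p, miR-34c-5p, miR-455-3p, miR-322-5p and miR-872-5p with r of 0.60 to 0.61, and the family stood below them, miR-199a-5p at 0.55, miR-214-3p at 0.41, miR-199b-5p at 0.39 and miR-214-5p at -0.17. In the microglial deviations miR-199a-5p stood at 0.35 and miR-143-3p at 0.70. With library totals alone the 5 features of the bulk deviations ranged from 0.41 to 0.57 and miR-199a-5p stood at 0.62, above all 5.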

How the data were processed

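Small RNA libraries of both fractions were compared in 12 groups of age, sex and fraction, taken from the titles. The authors trimmed reads with fastp 0.20.0 and counted them against miRBase and the mouse genome (GRCm38) with miRDeep2, and deposited whole-number read counts per miRNA, not normalised. Identical mature miRNAs had near-identical counts, so they share reads. The table had 2029 entries under 1885 names. A name with several entries, such as miR-199a-3p and miR-199a-5p, was represented by its largest one, which retained 48.9% to 66.4% of summed entries, and 3 candidates identical to another were dropped. Totals ran from 1678034 to 8867358 counts over 70 libraries. P6 female mouse 6 was set aside, since its libraries are absent from the libraries the study plotted. The study left out 1 outlier mouse without naming it in its text, so this identity is uncertain.

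CPM are counts divided by the library total. Features reaching 1 CPM in 5 or more libraries were scaled with TMM (edgeR 4.0.16) and fitted with limma-voom (limma 3.58.1, R 4.3.3) as 12 group means with mouse as a random effect, because both fractions of a mouse bear its number (consensus correlation 0.124). Contrasts average the sexes. TREAT tested a log2 fold change of 1 in either direction, with the Benjamini-Hochberg adjusted p held to 0.05 over 1072 features. Adjusted p-values are from this limma test unless stated. Likeness is Pearson's r of log2 CPM (TMM, prior count 2). The fit was also run on simulated counts, the outcome of which is not given here. Alternatives were a test without threshold, edgeR glmTreat, DESeq2 1.42.0, no block or a fixed block, other scalings and filters, the mouse set aside included, quality weights, summed entries, and each of 34 mice left out. All members, miR-199b-3p and the 5 features most like miR-143-3p and miR-199a-3p, over all libraries and over bulk deviations, are named. Of the lists, the myeloid, neuronal, endothelial and lymphoid ones are named in full, and the others in part or by counts. Members and lists were chosen with earlier results of these data known. P-values set a difference against the residual spread of libraries, 1 per mouse and fraction, in which mouse, handling and counting are not separated.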

Additional observations from a re-analysis of the deposited data

Results flagged for a closer look

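In 13 of 120 combinations of member and group, 1 library stood apart from the others of its age, sex and fraction by Dixon's criterion. For normally distributed values chance meets it in about 1 in 20 groups. In each of the 13 the library was the highest. Most of the 13 were of strands with few counts, where a single library with reads among libraries at 0 meets the criterion. Their number therefore cannot be set against that rate. For miR-214-5p they were microglia at 8 weeks of female mouse 1 (0.402 CPM, 2 counts) and male mouse 6 (0.231 CPM, 1 count), microglia at P15 of female mouse 1 (0.201 CPM, 1 count) and male mouse 2 (1.31 CPM, 5 counts), and bulk cells of male mouse 6 at P15 (2.15 CPM, 6 counts) and of male mouse 6 at 8 weeks (0.637 CPM, 2 counts). For miR-143-5p they were microglia of female mouse 4 at 8 weeks (2.45 CPM), of female mouse 4 at P15 (0.864 CPM) and of male mouse 4 at P15 (2.496 CPM). Further ones were miR-145b in bulk cells of P6 female mouse 2 (2.25 CPM, next 0.411 CPM), and, in microglia at 8 weeks, miR-199b-5p of male mouse 2 (1.44 CPM), miR-214-3p of female mouse 5 (3.30 CPM, next 0.847 CPM) and miR-199a-3p of female mouse 1 (102 CPM, next 73.1 CPM), the only 1 of the 13 with over 100 counts.

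The microglial library of P6 female mouse 6, set aside from all comparisons, lay above every P6 microglial library in 5 members. It held 2.58 CPM of miR-143-5p, 1.48 CPM of miR-145b, 77.1 CPM of miR-199a-5p against at most 71.0, 42.8 CPM of miR-214-3p against at most 32.3, and 1.66 CPM of miR-214-5p against at most 0.984. Its bulk library lay inside the P6 range for all 10 members.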

How the results depend on the processing

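The counts of called members were within 1.5 times of those reported in most settings. A test without threshold called more: lower in microglia 6 with the ages pooled, 5 at P6, 6 at P15 and 3 at 8 weeks, and 1 higher at P6; with age in bulk cells 3 higher from P15 to 8 weeks and 4 from P6 to 8 weeks; in microglia 5 lower from P6 to P15, 4 higher and 4 lower from P15 to 8 weeks, and 2 higher from P6 to 8 weeks; in the interactions 1 higher and 2 lower for P15 against P6, and 2 and 2 for 8 weeks against P6. The shares of all features beside these counts are given in the results above. For lower members in microglia from P15 to 8 weeks, 1 as reported, edgeR and library totals alone each gave 4, DESeq2 and quality weights 3, and DESeq2 size factors and summed entries 2. Of all 1072 features, 30 were lower there as reported. The number was 61 with edgeR and with library totals alone, 42 with DESeq2, 43 with quality weights and 33 with DESeq2 size factors. With summed entries it was 39 of 926. DESeq2 and the filter of 10 counts in 12 libraries each gave 0 lower in microglia at P6 and 2 lower in bulk cells from P6 to P15. All features lower in these comparisons numbered 97 and 12 of 1072 with DESeq2, and 127 and 13 of 775 with the filter. The filter no longer tested miR-214-5p, and in bulk cells miR-199a-3p also lost its call. Library totals alone gave 1 higher in bulk cells from P6 to 8 weeks, having lost miR-145a-5p, beside 101 of 1072 features higher.

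Leaving out each mouse gave 0 to 1 lower in microglia at P6 (0 without P6 male mouse 5), 2 to 4 lower in bulk cells from P6 to P15 (2 without P15 male mouse 3 or P6 female mouse 1), 1 to 2 lower in microglia from P15 to 8 weeks (2 without 8-week female mouse 1 or P15 male mouse 6) and 0 to 1 higher in the interaction for 8 weeks against P6 (1, miR-214-5p, without P6 male mouse 3). With no replicate block and with mouse as a fixed replicate block, for the comparisons it can fit, no count of members changed, such as the 0 called with the ages pooled and the 1 at P6.

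The sign of miR-145a-5p between microglia and bulk cells, ages pooled, turned with edgeR (0.13), DESeq2 (0.11), a fixed block (0.0023) and quality weights (0.0774), and ran from -0.0934 to 0.0292 without single mice. For miR-145b that range was -0.26 to 0.0075, above 0 without P6 female mouse 2. Under library totals alone miR-145a-3p in microglia from P6 to 8 weeks turned to -0.21. Of 50 correlations with the lead miRNAs, 11 moved by more than 0.1 under that scaling and 39 did not. Summing entries moved 22 of 60 mean CPM values by more than 1 SD, as library totals then grow. Counts were lowest for miR-143-5p, miR-214-5p and, before 8 weeks, miR-145b, and small differences in them were not detectable at this depth. The cause of these dependences was not tested unless stated.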
